A study of Mus musculus with 21 samples.

Results

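The genes described here are 10 subunit genes of ionotropic glutamate receptors: Grin1, Grin2a, Grin2b, Grin2c and Grin3a of the NMDA receptor and Grik1, Grik2, Grik3, Grik4 and Grik5 of the kainate receptor. They were chosen by name, and all 10 were found among the 52550 genes of the count table. The libraries are bulk RNA-Seq of mouse inner ear cells, with 3 libraries in each of 7 groups and 21 in all. Spiral ganglion neurons (SGNs), the primary neurons that carry sound information from the hair cells to the brainstem, were collected on embryonic day E15.5 and at the postnatal ages P1, P8, P14 and P30. The C57BL/6 mice were heterozygous for Cre at the Shh locus (ShhCre/+) and for Ai9, the Rosa26-CAG-loxp-stop-loxp-tdTomato reporter, so that cells with present or past Shh expression were red. The red cells were picked by hand from the cochlea, 69 to 195 a library, and the study kept samples by a qPCR check of a neuronal, a glial and a HC gene. Hair cells (HCs) at P12 came from Atoh1-CreER+; Ai9 mice given tamoxifen at P0 and P1, 1200 cells a library, and hold cochlear and vestibular HCs together. Glial cells at P8 came from the SGN area of vGlut3-iCreER/+; Ai9 mice given tamoxifen at P2 and P3, 86 to 125 cells a library. The Ai9 reporter was carried by all 7 groups, and the labels do not say whether the 3 libraries of a group came from different animals, so p-values measure the spread between libraries only.

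Glutamate released by the inner hair cell at the ribbon synapse acts on receptors of the SGN, of which the AMPA receptors carry the fast current. NMDA receptors are tetramers with obligatory GluN1 subunits, encoded by Grin1, and GluN2 or GluN3 subunits, which set their kinetics, magnesium block and response to glycine. Kainate receptors are tetramers of GluK1 to GluK3, the low-affinity subunits encoded by Grik1 to Grik3, alone or together with GluK4 and GluK5, the high-affinity subunits encoded by Grik4 and Grik5, which form no working channel by themselves.

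Libraries held between 10368240 and 37287489 counts on genes, and a count of 3, the limit that a count of 0 allows, equalled between 0.0805 and 0.289 CPM, the library-scaled count. This limit covers counting error only, since reads without molecular identifiers are not independent molecules. Levels are given as TMM-scaled RPKM, the count divided by gene length and by the TMM-scaled library size, so that they can be compared between genes and between libraries. On the TPM scale, where a single RNA gene took 8.17% to 68.07% of a library, the group with the highest mean stayed the same for Grin1, Grin2b, Grik2 and Grik4 and changed for the other 6 members. In bulk samples, fewer cells that express a gene and less RNA per cell cannot be told apart. The 8 SGN markers were all detected in each of the 15 SGN libraries, with summed levels of 848 to 917 at E15.5 and 3779 to 4447 at P30, against 101 to 125 in HCs and 33.3 to 297 in glia. The 8 HC markers summed to 1576 to 1743 in HCs, 19.4 to 361 in SGNs and 78.2 to 334 in glia. The 8 glial markers summed to 6749 to 9325 in glia, 55.0 to 1183 in SGNs and 39.2 to 111 in HCs. In SGN libraries the 4 microglial markers summed to 0.143 to 4.95, the 3 endothelial markers to 0.00 to 36.4, the 4 mesenchymal markers to 1.04 to 47.6 and the 4 hemoglobin genes to 0.00 to 115. At E15.5, P1, P8 and P30 the hemoglobin sum was 115, 19.2, 22.2 and 15.3 in replicate 1. It was at most 2.61 in all other SGN libraries. Replicate 1 also had the highest mesenchymal sum of its age at P1, P8, P14 and P30 (47.6, 29.8, 19.9 and 13.3). The part of such cells in the levels of the members was not tested.

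Grin1, the gene of the obligatory GluN1 subunit (chr2:25291181-25319187, minus strand, GRCm38), was the most abundant of the 5 NMDA members in every SGN library. Its levels at E15.5 were 4.49, 4.24 and 3.92 in the 3 libraries. They were 10.5, 10.1 and 10.2 at P1, and 17.8, 18.4 and 20.3 at P8. The libraries of E15.5, P1 and P8 did not overlap in any pair of these ages. At P14 the levels were 19.9, 29.9 and 24.6, and at P30 they were 23.0, 21 and 20.8, and these last 2 ages overlapped. From E15.5 to P1 Grin1 rose 2.44-fold (log2 fold change 1.29, SE 0.20, limma adjusted p = 0.00115). Between E15.5 and P30 it rose 5.03-fold (log2 fold change 2.33, SE 0.20, adjusted p = 1.75e-07). From P1 to P8 the log2 fold change was 0.87 (SE 0.15, adjusted p = 0.00157), below the 2-fold limit. Over E15.5 to P30 the summed level of the SGN markers was also higher at each later age in all libraries than at E15.5, and the part of a changed SGN content in the rise of Grin1 was not tested. Of the exonic bases of Grin1, 13.5% are shared with Grin1os on the opposite strand, and counts there cannot be assigned to a strand.

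**Figure D1:**
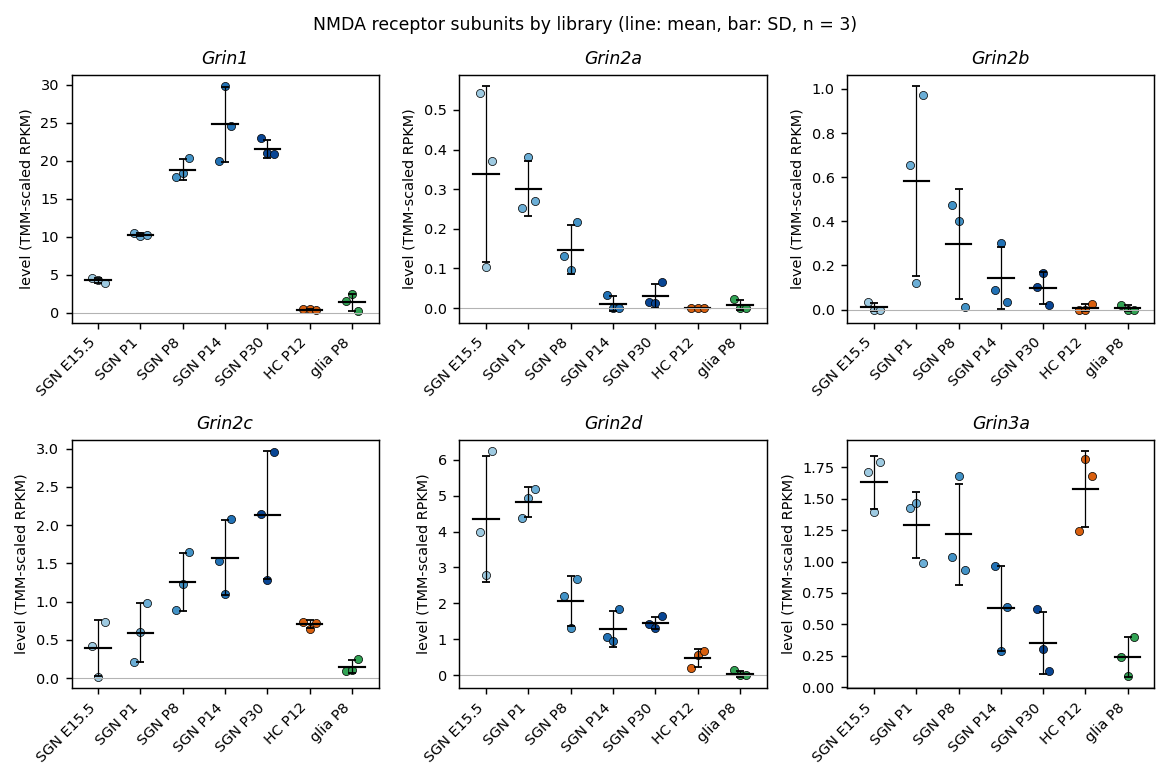
Levels of the NMDA receptor subunit genes (y axis, TMM-scaled RPKM, a separate linear scale for each gene) in the 5 SGN ages, HCs and glia (x axis). Points are libraries, horizontal lines the means and vertical bars the SD of 3 libraries. Grin1 goes from a mean of 4.22 at E15.5 to 24.8 at P14, Grin2c and Grin2d move in opposite directions with age, and the HC libraries of Grin3a overlap those of E15.5 SGNs.

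Grin2a, Grin2b and Grin2c, genes of the glutamate-binding GluN2 subunits, were each lower than Grin1 in every SGN library. Grin2a, which encodes a subunit typical of mature forebrain synapses (chr16:9567898-9995560, minus strand), had 146, 38 and 138 counts at E15.5, 159, 173 and 114 at P1, and 76, 52 and 96 at P8. At P14 it had 14, 0 and 0 counts and at P30 8, 4 and 22 counts, so that the libraries of the first 3 ages all lay above those of the last 2. Its mean level fell from 0.339 ± 0.222 (SD, n = 3) at E15.5 to 0.0311 ± 0.0304 at P30. Between E15.5 and P30 Grin2a fell by 3.50 on the log2 scale (SE 1.03, adjusted p = 0.0124). Without P30 replicate 1 the adjusted p was 0.0624, and without P30 replicate 3 or E15.5 replicate 2 the log2 fold change was -4.19 or -4.27. Grin2a entered the fits of ages and of cell types through E15.5, P1 and P8 alone, where it was highest. Grin2b, a subunit typical of immature forebrain synapses (chr6:135713233-136173511, minus strand), had 12, 0 and 0 counts at E15.5 and 569, 75 and 570 at P1. At P8 it had 382, 302 and 8 counts, at P14 52, 140 and 14, and at P30 77, 75 and 10. The libraries of P1 all lay above those of E15.5, while P1, P8, P14 and P30 overlapped. Between E15.5 and P1 the log2 fold change was 7.17 (SE 2.58, adjusted p = 0.0812), which did not pass. It passed in the fit without P1 replicate 2 (adjusted p = 0.0476), without P8 replicate 3 (adjusted p = 0.042), with edgeR, with DESeq2, without a filter on low counts and with the replicate block (adjusted p = 0.0474). Grin2b entered the fit through P1 alone, the only age with all 3 libraries over 1 CPM.

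The log2 ratio of Grin2a to Grin2b, per length and without a test, was -1.37, 1.68 and -1.85 in the 3 libraries of P1, -1.86, -2.07 and 4.05 at P8, and -2.80, -3.76 and 1.61 at P30. Each of these ages had 2 libraries with more Grin2b than Grin2a and 1 with more Grin2a. At E15.5 Grin2b was at 0 in 2 of 3 libraries, and in replicate 1 the log2 ratio was 4.08, while at P14 Grin2a was at 0 in 2 libraries and the ratio was -1.42 in replicate 1. The sign of the ratio thus differed between libraries of an age at P1, P8 and P30.

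Grin2c, which encodes a subunit known from cerebellar granule cells (chr11:115249169-115267243, minus strand), had levels of 0.424, 0.0192 and 0.739 at E15.5 and 0.204, 0.606 and 0.977 at P1. They were 0.891, 1.23 and 1.65 at P8, 1.53, 1.10 and 2.08 at P14, and 2.14, 1.28 and 2.96 at P30. All libraries of P14 and P30 lay above those of E15.5 and P1, and neighboring ages overlapped. Grin2c entered the fit of ages through P1, P8, P14 and P30 and not through E15.5, where its mean was lowest. Over E15.5 to P30 Grin2c rose by 3.40 on the log2 scale (SE 0.97, adjusted p = 0.0107). E15.5 replicate 2, with 2 counts, set much of this value: without it the log2 fold change was 1.75 (adjusted p = 0.0689), without E15.5 replicate 3 it was 4.45, and edgeR and DESeq2 gave 2.38 and 2.35. Grin2d, the remaining GluN2 gene and a subunit of brainstem and interneurons, fell by 1.29 on the log2 scale from P1 to P8 (SE 0.32, adjusted p = 0.0154) and by 1.54 from E15.5 to P30 (SE 0.40, adjusted p = 0.00605). The first of these did not pass with edgeR (adjusted p = 0.0692) or without P8 replicate 2 (0.0912). Of the exonic bases of Grin2d, 9.66% are shared with Gm45441 on the opposite strand. Grin2d made up 86.9% ± 8.10 (SD, n = 3) of the summed GluN2 level at E15.5 and 77.1% ± 6.26 at P1. Its share was 53.8% ± 9.33 at P8 and near 40% later, with 42.1% ± 4.06 at P14 and 40.4% ± 6.26 at P30. The share of Grin2c went from 6.40% ± 5.03 at E15.5 to 33.6% ± 8.53 at P8 and 55.8% ± 8.60 at P30. Grin2a and Grin2b each held at most 13.3% of the GluN2 level in any SGN library. Such shares are ratios within a library, do not depend on its scaling and were given no test. They do depend on the gene lengths used. These were 17933 bases for Grin2a and 24842 for Grin2b, against 5037 for Grin2c and 6658 for Grin2d.

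Grin3a, whose GluN3A subunit binds glycine and lowers calcium entry (chr4:49661611-49845744, minus strand), had levels of 1.71, 1.39 and 1.79 at E15.5 and 1.42, 1.47 and 0.992 at P1. They were 1.03, 1.68 and 0.936 at P8, 0.963, 0.287 and 0.637 at P14, and 0.620, 0.304 and 0.127 at P30. No 2 neighboring ages were separate, but each library of P30 lay below each library of E15.5, P1 and P8. Grin3a fell by 2.39 on the log2 scale from E15.5 to P30 (SE 0.58, adjusted p = 0.00381), and without P30 replicate 1 by 3.07. Grin3b, the other GluN3 gene, went from 0.625 at E15.5 to 0.720 at P30 (log2 fold change 0.77, SE 1.05, adjusted p = 0.58), and 32.1% of its exonic bases are shared with Tmem259. GluN3 genes held 19.8% ± 4.80 of the summed NMDA level at E15.5 and 4.04% ± 0.32 at P30 (n = 3). The share of Grin1 in that sum went from 37.5% ± 8.48 at E15.5 to 55.3% ± 0.49 at P1. It lay between 77.4% and 79.2% in the libraries of P8 and stood at 81.9% ± 3.39 at P30. Grin1 transcripts thus stood at 0.96 ± 0.47 times the GluN2 sum at E15.5 and at 6.08 ± 1.57 times at P30.

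Among the kainate genes, Grik3, which encodes the low-affinity subunit GluK3 (chr4:125490700-125714173, plus strand), moved furthest. It had 12, 26 and 20 counts at E15.5 and 1807, 1797 and 1118 at P1, which are levels of 0.0892, 0.140 and 0.108 against 5.75, 7.93 and 5.29. At P8 the levels were 8.56, 9.04 and 3.74, at P14 5.90, 2.60 and 3.45, and at P30 4.88, 0.611 and 1.94. Every postnatal library lay above every E15.5 library, and the 4 postnatal ages overlapped as neighbors. From E15.5 to P1 Grik3 rose 53.9-fold (log2 fold change 5.75, SE 1.33, adjusted p = 0.0119). The adjusted p was 0.0605 without E15.5 replicate 3 and 0.143 with sample quality weights, with log2 fold changes of 5.72 and 5.83. At P30 against E15.5 the log2 fold change was 4.14 (SE 1.38, adjusted p = 0.0247). That call was lost without any 1 of the 3 E15.5 libraries (adjusted p = 0.0719, 0.0722 and 0.0871), without P30 replicate 1 (log2 fold change 3.22, adjusted p = 0.056), with sample quality weights (0.178) and with a filter at 10 CPM (0.0503), and without P30 replicate 2 the log2 fold change was 4.81. Both changes were called by edgeR and by DESeq2. Grik3 entered the fit of ages through P1, P8, P14 and P30 and not through E15.5, where its mean was lowest.

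Grik1, the gene of GluK1 (chr16:87895900-88290265, minus strand), varied widely between libraries of an age. It had 5, 804 and 4 counts at E15.5 and 23, 0 and 86 at P1. Counts were 474, 197 and 120 at P8, then 106, 16 and 33 at P14, and 221, 18 and 42 at P30. E15.5 replicate 2 alone held a level of 6.30, against 0.0539 and 0.0313 in the other libraries of that age. From P1 to P8 the log2 fold change was 4.44 (SE 1.72, adjusted p = 0.113), and without E15.5 replicate 2, which enters the estimate of the spread, the adjusted p was 0.0391. Grik1 entered the fit through P8 alone. Grik2, the gene of GluK2 (chr10:49094833-49788766, minus strand), had levels of 2.87, 1.67 and 3.62 at E15.5 and 1.55, 0.873 and 2.29 at P1. They were 2.21, 1.38 and 1.78 at P8, then 2.12, 1.54 and 1.32 at P14, and 2.52, 2.35 and 3.82 at P30. Each library of P30 lay above each library of P1, P8 and P14, and no age comparison of Grik2 passed with all libraries (adjusted p between 0.161 and 0.972). Without E15.5 replicate 2 it was called from E15.5 to P1.

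Grik5, the gene of the high-affinity subunit GluK5 (chr7:25009849-25072346, minus strand), was the most abundant kainate gene at E15.5 and P1. Its levels were 9.23, 14.2 and 8.23 at E15.5, 13.2, 10.8 and 12.1 at P1, and 7.16, 6.31 and 4.09 at P8. At P14 they were 5.34, 4.38 and 4.35 and at P30 6.07, 2.38 and 4.73. Every library of E15.5 and P1 lay above every library of P8, P14 and P30. From P1 to P8 Grik5 fell 2.08-fold (log2 fold change -1.06, SE 0.28, adjusted p = 0.0199), close to the 2-fold limit. The change did not pass with edgeR (adjusted p = 0.0757), nor without P1 replicate 1 (0.0835), P8 replicate 2 (0.051) or P8 replicate 3 (0.0916). Between E15.5 and P30 Grik5 fell by 1.30 on the log2 scale (SE 0.34, adjusted p = 0.00579), and by 0.97, under the fold limit, without P30 replicate 2. Grik4, the gene of GluK4 (chr9:42518135-42944493, minus strand), had levels of 2.12, 4.90 and 2.28 at E15.5 and 4.37, 5.49 and 7.44 at P1. They were 4.08, 2.94 and 3.52 at P8, then 3.38, 5.24 and 3.47 at P14, and 5.61, 4.33 and 4.42 at P30. Each library of P1 and of P30 lay above each library of P8. No age comparison of Grik4 passed with all libraries (adjusted p between 0.0976 and 0.99), while without E15.5 replicate 2 it was called from E15.5 to P1 and from E15.5 to P30.

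**Figure D2:**
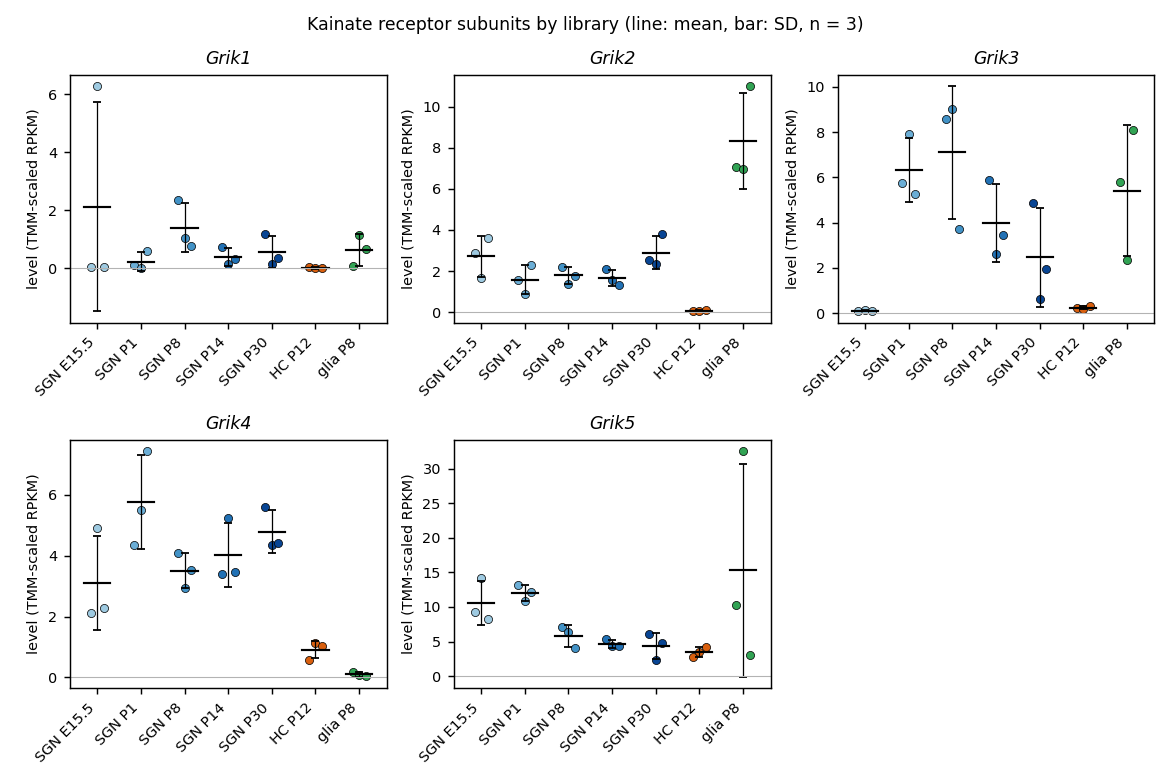
Levels of the kainate receptor subunit genes (y axis, TMM-scaled RPKM, a separate linear scale for each gene) in the 5 SGN ages, HCs and glia (x axis). Points are libraries, horizontal lines the means and vertical bars the SD of 3 libraries. Grik3 is near 0 at E15.5 and in HCs, Grik4 is near 0 in glia, Grik2 is highest in glia, and the E15.5 mean of Grik1 rests on 1 library.

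The make-up of the kainate genes is given as shares of the level per length within a library, without a test. Grik5 held 58.1% ± 5.99 (SD, n = 3) of the summed Grik level at E15.5 and 46.5% ± 5.41 at P1. Later its share was 29.7% ± 0.62 at P8, with 31.9% ± 1.60 at P14 and 28.4% ± 3.65 at P30. Grik3 held 0.63% ± 0.13 at E15.5, 35.2% ± 8.37 at P8 and 14.3% ± 9.03 at P30. Grik4 and Grik2 held 33.6% ± 9.14 and 20.4% ± 6.96 at P30. The low-affinity genes together held 25.7% ± 4.43 at E15.5, 51.5% ± 5.44 at P8 and 38.1% ± 5.62 at P30. Over the 16 NMDA, kainate and AMPA genes, NMDA genes held 15.8% ± 3.50 of the summed level at E15.5 and 25.4% ± 2.60 at P30, kainate genes 25.9% ± 11.9 and 14.7% ± 5.55, and AMPA genes 58.3% ± 10.6 and 59.9% ± 8.12.

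**Figure D3:**
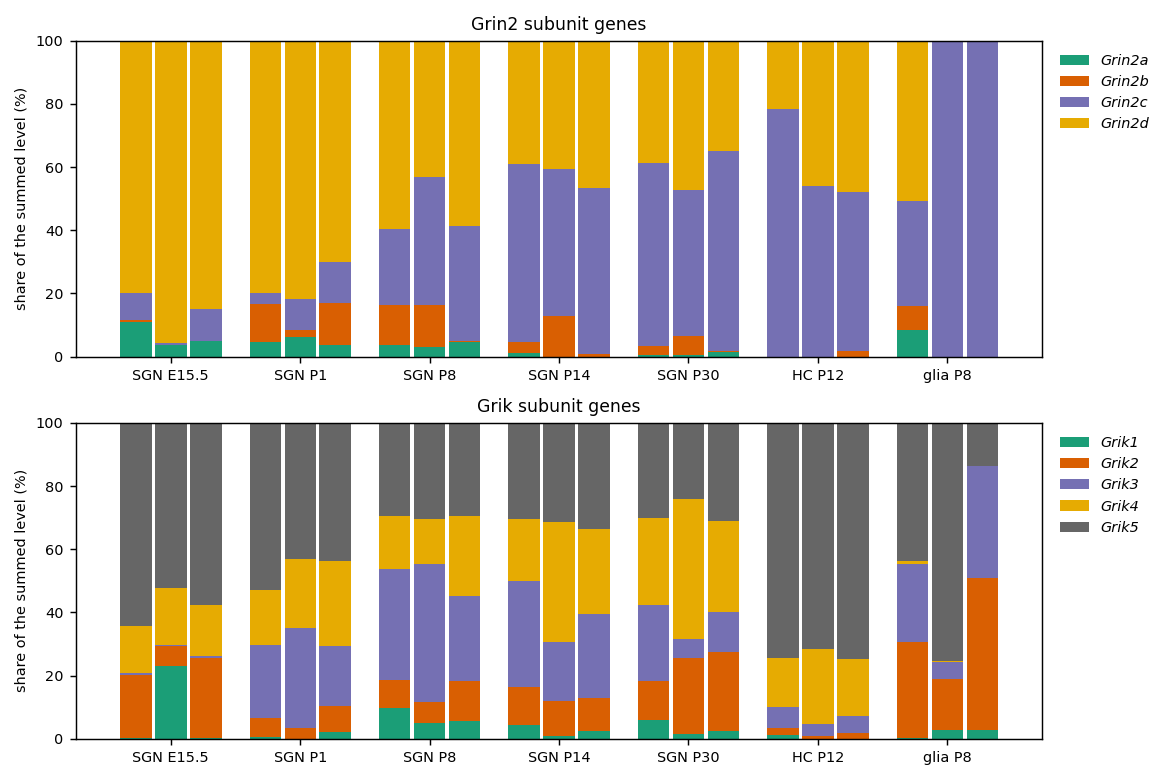
Share of each gene in the summed level per length of the 4 GluN2 genes (upper plot) and of the 5 kainate genes (lower plot), in percent (y axis), with 1 stacked bar for each library, grouped by cell type and age (x axis). Grin2d gives way to Grin2c with age in SGNs, and Grik5 falls from most of the kainate level at E15.5 to 28.4% on average at P30. In glia Grin2a, Grin2b and Grin2d had 0 counts in 2 of 3 libraries.

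Counted over the members, 2 of the 10 genes were called from E15.5 to P1, Grin1 and Grik3, both higher at P1, where 8.26% of all genes tested were called. From P1 to P8, 1 member was called, Grik5, lower at P8, against a background of 7.44%. From P8 to P14 and from P14 to P30 limma called 0 members, with 2 and 0 at an unadjusted p under 0.05, and edgeR called 0 in both. DESeq2 called Grin2a from P8 to P14 and 0 members from P14 to P30. The backgrounds of these transitions were 0.536% and 0.0596%. From E15.5 to P30, 6 of 10 members were called against 34.6% of genes. Of these, 3 were higher at P30 (Grin1, Grin2c and Grik3) against 18.4% of genes, and 3 were lower (Grin2a, Grin3a and Grik5) against 16.2%. Grin2c and Grik3 did not pass the filter on low counts at E15.5, nor did Grin2a at P30. The same 6 genes were called in the test of any difference among the 5 ages, against 43.9% of genes. In that test Grin2c was not called by edgeR (5 members) or DESeq2, and Grin2b was called by DESeq2 and without P8 replicate 3. The filter at 10 CPM left out Grin2a and Grin2c. The median log2 fold change of the members from E15.5 to P30 was 0.76, beside -0.01 for all genes tested, and from E15.5 to P1 it was 0.56, beside 0.07. With the library size in place of TMM the median of all genes moved to -0.49 and the share of calls that were higher at P30 from 53.2% to 29.9%, while the 6 members called were the same and kept their directions.

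**Figure D4:**
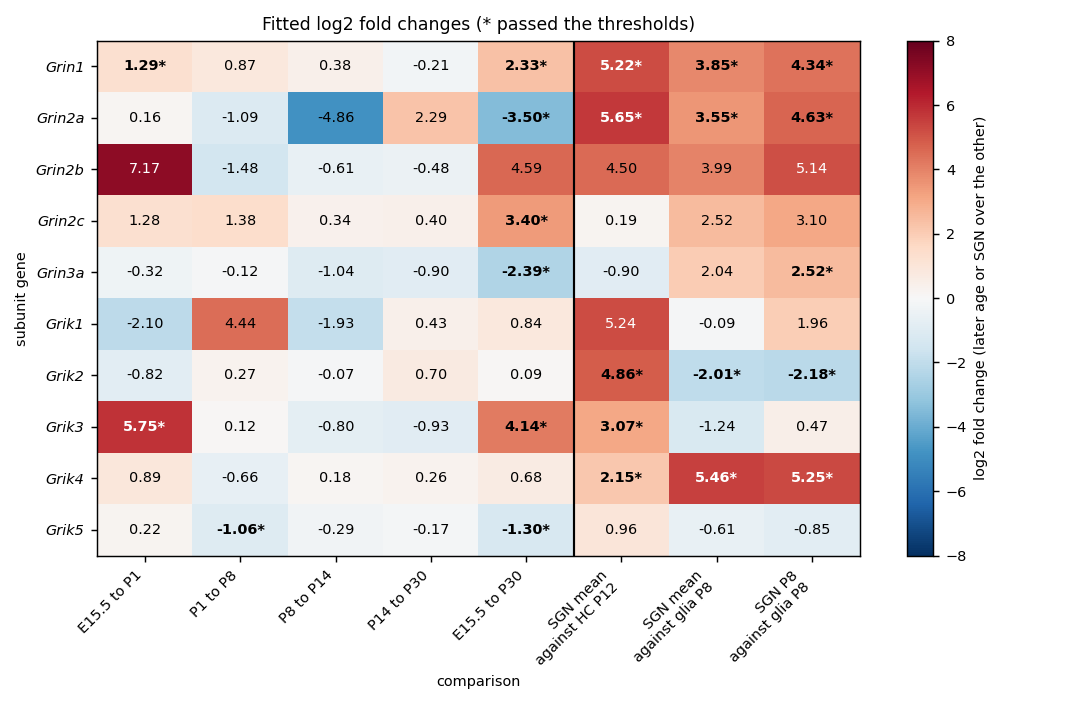
Log2 fold changes of the 10 members (rows) in 8 comparisons (columns) from the limma fits, with an asterisk and bold type where the thresholds were passed. Columns left of the line compare SGN ages (positive: higher at the later age, adjusted p under 0.05 and over 2-fold). Columns right of it compare SGNs with HCs and glia (positive: higher in SGNs, adjusted p under 0.01 and over 4-fold). The calls of E15.5 to P30 go both ways, and all 5 calls against HCs are higher in SGNs.

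The promoters of 4 of these 6 genes, from 250 bases before to 50 after the RefSeq start (GRCm38.p6), are shown because Grin1, Grik3 and Grin2c rose and Grik5 fell over the same ages. RefSeq entries were used for 6 of the 10 members. Capitals mark GC boxes (GGGCGG on either strand, overlapping matches included) and the E box CACGTG.
Grin1, chr2:25319138-25319437, minus strand: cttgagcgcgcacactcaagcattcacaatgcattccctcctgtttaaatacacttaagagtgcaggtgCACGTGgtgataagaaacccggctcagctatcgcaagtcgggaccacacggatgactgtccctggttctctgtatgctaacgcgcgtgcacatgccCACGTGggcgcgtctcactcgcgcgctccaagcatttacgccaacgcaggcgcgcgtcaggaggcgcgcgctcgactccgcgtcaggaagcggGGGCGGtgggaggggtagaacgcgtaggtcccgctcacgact
Grik3, chr4:125490446-125490745, plus strand: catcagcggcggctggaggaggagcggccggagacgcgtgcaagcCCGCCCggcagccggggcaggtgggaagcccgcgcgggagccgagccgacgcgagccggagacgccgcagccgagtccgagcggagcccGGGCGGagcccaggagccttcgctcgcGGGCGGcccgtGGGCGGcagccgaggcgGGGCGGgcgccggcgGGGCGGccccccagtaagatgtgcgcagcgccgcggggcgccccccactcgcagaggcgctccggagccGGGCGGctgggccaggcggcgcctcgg
Grin2c, chr11:115267194-115267493, minus strand: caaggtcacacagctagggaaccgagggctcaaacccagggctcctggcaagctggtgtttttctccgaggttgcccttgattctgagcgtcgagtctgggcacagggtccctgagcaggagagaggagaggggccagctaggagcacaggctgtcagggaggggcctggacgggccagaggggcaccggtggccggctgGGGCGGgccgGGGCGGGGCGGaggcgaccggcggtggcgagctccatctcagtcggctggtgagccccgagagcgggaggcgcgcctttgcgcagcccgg
Grik5, chr7:25072320-25072619, minus strand: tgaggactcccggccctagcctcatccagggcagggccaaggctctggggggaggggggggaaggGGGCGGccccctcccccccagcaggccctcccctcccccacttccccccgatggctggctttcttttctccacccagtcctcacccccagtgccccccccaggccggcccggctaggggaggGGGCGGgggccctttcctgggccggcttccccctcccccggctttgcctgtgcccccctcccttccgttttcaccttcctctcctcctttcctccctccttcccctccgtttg
The Grik3 window held 7 GC boxes and 50 CpG dinucleotides, more CpG than 99.1% of the 32851 promoter windows of the same length. The Grin1 window held 1 GC box, 2 E boxes and 33 CpG, more CpG than 91.4% of windows. The Grin2c window held 3 GC boxes, of which 2 overlap, and 22 CpG, more CpG than 76.9% of windows. The Grik5 window held 2 GC boxes and 10 CpG, more CpG than 56.5% of windows. A GC box was found in 35.7% of all windows and the E box in 7.2%. The TATA box TATAAA, on either strand, was in 0 of the 6 members' windows and in 13.6% of all windows. These matches describe the letters only.

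Against HCs, the mean of the 5 SGN ages was higher for 5 of 10 members, with 26.8% of all genes called, 10.5% higher and 16.2% lower in SGNs. HCs also differed from SGNs in age, Cre line, tamoxifen and number of cells, which cannot be told apart from cell type. The median log2 fold change of the members was 3.78, beside 0.02 for all genes. Grin1 had levels of 0.414, 0.428 and 0.265 in the 3 HC libraries, below every SGN library, and was 37.1-fold higher in SGNs (log2 fold change 5.22, SE 0.57, adjusted p = 1.43e-07). Grik2, at 0.0758, 0.0388 and 0.0999 in HCs, was 29.0-fold higher in SGNs (log2 fold change 4.86, SE 0.75, adjusted p = 1.38e-05). Grin2a was at 0 counts in all 3 HC libraries, and its mean over the SGN ages was at least 21-fold higher than the level that 3 counts per library allow. By age this bound was 42.8-fold at E15.5, 38.1-fold at P1, 18.7-fold at P8, 1.4-fold at P14 and 3.9-fold at P30. The Grin2a libraries of P14 overlapped those of HCs. Grik4, at 0.584, 1.14 and 1.02 in HCs, was 4.45-fold higher in SGNs (log2 fold change 2.15, SE 0.44, adjusted p = 0.000331), and 1.93 on the log2 scale, under the fold limit, without HC replicate 1. Grik4 also fell under the limit with DESeq2 (1.95) and with library size only (1.60). Grik3, at 0.25, 0.191 and 0.304 in HCs, was above all E15.5 libraries and below all later ones. Its log2 fold change of 3.07 (SE 0.92, adjusted p = 0.00809) missed the threshold in 16 of 28 alternatives, with adjusted p between 3.41e-09 and 0.0408 over all of them. The libraries whose removal ended this call were E15.5 replicates 2 and 3, P1 replicate 2, P8 replicates 1 and 2, P14 replicates 1 and 3, P30 replicate 3, each HC library, and glial replicates 1 and 3. With the library size in place of TMM the median of all genes against HCs moved from 0.02 to -0.54 and the share of calls that were higher in SGNs from 39.3% to 26.0%, with 3 members called, Grin1, Grin2a and Grik2.

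Grin3a was the NMDA gene that HCs expressed most per length, at 1.24, 1.82 and 1.68, a mean of 1.58 ± 0.300 (SD, n = 3). These levels overlapped those of SGNs at E15.5, P1 and P8 and lay above all libraries of P14 and P30. Over the mean of the SGN ages the log2 fold change of Grin3a was -0.90 (SE 0.33, adjusted p = 0.027), which did not pass the thresholds. Grin2c, at 0.739, 0.646 and 0.724 in HCs, lay below every SGN library of P8, P14 and P30, with a log2 fold change over all ages of 0.19 (SE 0.62, adjusted p = 0.82). Grik1 had 5, 0 and 0 counts in HCs and Grin2b 0, 0 and 16. Their log2 fold changes of 5.24 (adjusted p = 0.014) and 4.5 (adjusted p = 0.0271) did not pass, though Grik1 passed without E15.5 replicate 2 (0.00899) or P1 replicate 2 (0.00488), with DESeq2 (0.000328) and with sample quality weights (0.00182), and Grin2b without P8 replicate 3 (0.00761). In HCs the GluN3 genes held 62.2% ± 3.63 of the summed NMDA level and Grin1 9.07% ± 3.04. Grik5, at 2.79, 3.46 and 4.21 in HCs, held 73.6% ± 1.73 of the summed Grik level there and did not differ by the thresholds from SGNs (log2 fold change 0.96, SE 0.48, adjusted p = 0.1). Grin2d, at 0.204, 0.553 and 0.687 in HCs and 0.139, 0.00 and 0.00 in glia, was higher in SGNs by 2.37 (SE 0.60, adjusted p = 0.00214) and 6.88 (SE 0.90, adjusted p = 2.55e-06) on the log2 scale. The HC call did not pass without HC replicate 1 (1.93) or 2 (adjusted p = 0.0106) or with library size only (1.81), while the glial values all passed over 28 alternatives, from 5.45 with DESeq2 to 8.41 without glial replicate 1, with 6.08 and 6.17 without glial replicates 2 and 3. AMPA genes held 6.85% ± 0.72 of the summed level of the 16 genes in HCs. The 8 SGN markers summed in HCs to at most 125, beside at least 848 in SGNs.

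Against glia, the mean of the SGN ages passed for 4 of 10 members, with 24.7% of all genes called, 14.3% higher and 10.4% lower in SGNs. The median log2 fold change of the members was 2.28, beside 0.22 for all genes. Grik4 was almost absent from glia, with 21, 6 and 2 counts and levels of 0.181, 0.0874 and 0.0323, and was 44.2-fold higher in SGNs (log2 fold change 5.46, SE 0.72, adjusted p = 2.92e-06). It was called in all 28 alternatives, with log2 fold changes of 4.92 to 6.04. Grin1 had levels of 1.48, 2.44 and 0.159 in glia and was 14.4-fold higher in SGNs (log2 fold change 3.85, SE 0.52, adjusted p = 3.43e-06). The log2 fold change was 2.90 without glial replicate 3, 4.49 without glial replicate 2 and 3.24 with DESeq2, and it was called in all 28 alternatives. The summed SGN markers were 297, 54.1 and 33.3 in the same 3 glial libraries, and the part of neuronal RNA in their Grin1 level was not tested. Grin2a, with 8, 0 and 0 counts in glia, had a log2 fold change of 3.55 (SE 0.99, adjusted p = 0.00555), which did not pass without glial replicate 2 (2.95, adjusted p = 0.056) or replicate 3 (3.03, adjusted p = 0.0537), with edgeR (0.0445) or with sample quality weights (0.157), and was 4.69 without glial replicate 1. The Grin2a libraries of P14 and P30 overlapped those of glia.

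Grik2 was higher in glia than in SGNs. Its glial levels were 7.05, 6.95 and 11.0, above the highest SGN library at 3.82. It was 4.03-fold lower in the mean of the SGN ages (log2 fold change -2.01, SE 0.24, adjusted p = 5.82e-07), close to the 4-fold limit. It fell under that limit in 10 of 28 alternatives, with log2 fold changes of -1.80 to -2.12 and adjusted p of at most 0.000159 over the 28. The libraries whose removal ended the call were E15.5 replicate 2, P1 replicate 2, P8 replicate 2, P14 replicates 2 and 3, P30 replicates 1 and 2 and glial replicate 3. The replicate block also ended it, at -2.00, and so did the fit without a filter on low counts, at -1.91. At P8, SGNs and glia can be compared at a matched age, though Cre line and tamoxifen still differed and cannot be told apart from cell type. In this comparison 20.9% of all genes were called, 13.4% higher and 7.53% lower in SGNs. There 5 of 10 members passed, and the median over the members was 2.81, beside 0.22 for all genes. Grik2 was lower in SGNs (log2 fold change -2.18, SE 0.33, adjusted p = 2.58e-05), and under the limit without P8 replicate 2 (-2.00) or glial replicate 3 (-1.97). Grik4 was 38.1-fold higher in SGNs (log2 fold change 5.25, SE 0.75, adjusted p = 1.44e-05) and Grin1 20.2-fold (log2 fold change 4.34, SE 0.53, adjusted p = 2.36e-06), the latter with 3.39 without glial replicate 3 and 4.98 without glial replicate 2.

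Grin2a and Grin3a were the remaining calls at P8, with less stable adjusted p. Grin2a had a log2 fold change of 4.63 (SE 1.11, adjusted p = 0.00207). It was 5.77 without glial replicate 1, and the adjusted p was 0.0186 without glial replicate 2, 0.018 without glial replicate 3, 0.0391 with edgeR and 0.0575 with sample quality weights. Grin3a, at 0.239, 0.0849 and 0.400 in glia, had a log2 fold change of 2.52 (SE 0.68, adjusted p = 0.00503). It did not pass without P8 replicate 2 (adjusted p = 0.0177), glial replicate 1 (0.0168) or glial replicate 2 (0.0289), nor with sample quality weights (0.119). The glial markers summed to 736 to 1183 in SGNs at P8, the highest of the 5 ages, and to 55.0 to 191 at E15.5, and the part of glial RNA in the SGN levels of Grik2, Grik3 and Grik5 was not tested. Grik3 had levels of 5.81, 2.36 and 8.09 in glia and overlapped SGNs at P1, P8, P14 and P30 (log2 fold change at P8 0.47, SE 0.48, adjusted p = 0.449). Grik5 had levels of 10.2, 32.5 and 3.09 in glia, spread wider than any group of SGNs, and did not pass (log2 fold change at P8 -0.85, SE 0.50, adjusted p = 0.177). Grin2c, at 0.0921, 0.103 and 0.248 in glia, lay below every SGN library of P8 and all later ages. Its log2 fold change at P8 was 3.10 (SE 0.94, adjusted p = 0.0114, and 0.00605 with the replicate block), which passed without E15.5 replicate 2 or 3 or P1 replicate 1 and with DESeq2. Grin2b had 10, 0 and 0 counts in glia and a log2 fold change at P8 of 5.14 (adjusted p = 0.0272), which passed without P8 replicate 3 (6.66, adjusted p = 0.00154) and with DESeq2 (0.00623). Grik1, with 8, 82 and 42 counts in glia, had a log2 fold change at P8 of 1.96 (SE 1.40, adjusted p = 0.271). Over the mean of the SGN ages the glial comparison gave 2.52 for Grin2c (adjusted p = 0.0203), 2.04 for Grin3a (0.0113), 3.99 for Grin2b (0.0521), -0.09 for Grik1 (0.963), -1.24 for Grik3 (0.0333) and -0.61 for Grik5 (0.21), none of which passed with all libraries in limma. Grin2c passed with edgeR (0.0081), with DESeq2 (0.000178), with the replicate block (0.00815) and without E15.5 replicate 2 (0.00224). Grin3a passed without P14 replicate 2 (0.00712) or P30 replicate 3 (0.00692) and with the block (0.00883), and Grin2b with DESeq2 (0.0079).

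Other genes of the receptors came from lists chosen by function. Of the further NMDA subunit genes, Grin2d was called from E15.5 to P30 and Grin3b was not, with the values given above. Grid1, which encodes a subunit of the related delta receptors, had means of 1.25 at E15.5 and 0.730 at P30 (adjusted p = 0.184). Of the kainate auxiliary subunits, Neto2 had levels of 17.8, 7.92 and 10.4 at E15.5 against 2.41, 3.02 and 2.42 at P1, and fell by 2.10 on the log2 scale (SE 0.34, adjusted p = 0.00136). Up to P30 Neto2 fell by 2.63 (SE 0.40, adjusted p = 8.32e-05). Neto1 stayed under the filter, with 0, 257 and 45 counts at E15.5 and 0 to 62 at P30. Of the 4 AMPA genes, Gria2, whose edited subunit blocks calcium entry, rose by 1.41 from E15.5 to P30 (SE 0.26, adjusted p = 0.000518), with levels of 6.80, 4.97 and 5.35 at E15.5 and 11.8, 18.7 and 17.2 at P30. With library size only its value was 0.93, under the fold limit. Gria3 and Gria4 did not pass there (log2 fold changes 0.22 and 0.39, adjusted p = 0.492 and 0.227), and Gria1 stayed under the filter. All 3 AMPA genes tested were higher in SGNs than in HCs, Gria2 by 7.24, Gria3 by 5.77 and Gria4 by 7.55 on the log2 scale (adjusted p = 0.000119, 4.2e-07 and 3.75e-06). Against glia, Gria4 passed (2.19, adjusted p = 0.000347), though not with edgeR (1.96), with DESeq2 (1.92) or without glial replicate 3 (1.43), and was 2.89 without glial replicate 1. Gria3 had a log2 fold change of 0.01 against glia (adjusted p = 0.965).

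Of 21 postsynaptic scaffold genes, 9 were called from E15.5 to P30, 3 higher and 6 lower, against 34.6% of all genes, 18.4% higher and 16.2% lower, with a median log2 fold change of -0.53 beside -0.01 for all genes. The furthest were Homer3, a Homer protein that links metabotropic receptors to calcium stores, at -5.36 (SE 1.08, adjusted p = 0.000954, and -6.02 without P30 replicate 1), Lin7b, at 3.11 (SE 0.82, adjusted p = 0.00661, and 1.93 without E15.5 replicate 3), and Dlg3, the gene of the scaffold SAP102, at -1.95 (SE 0.31, adjusted p = 0.000124). Of the exonic bases of Homer3 and Lin7b, 25.4% and 24.4% are shared with genes on the opposite strand. Dlg3 had levels of 5.78, 6.97 and 8.16 at E15.5 and 1.71, 1.61 and 2.396 at P30. Dlg4, the gene of PSD-95, had a log2 fold change of 0.19 (SE 0.17, adjusted p = 0.364) and was added to the named genes after its value was seen. Of 13 signalling genes at the NMDA receptor, 8 were called, 6 higher and 2 lower, against the same background, with a median of 0.73. Nos1, the neuronal nitric oxide synthase that PSD-95 tethers to the receptor, had levels of 0.771, 1.35 and 0.555 at E15.5 and 42.7, 43.0 and 53.4 at P30. Nos1 rose by 5.73 (SE 0.37, adjusted p = 1.04e-08). Rasgrf2, a calcium-dependent exchange factor for Ras, went from 0, 16 and 2 counts to 355, 76 and 270 (5.86, SE 1.34, adjusted p = 0.00244), with 4.87 and 7.10 without E15.5 replicates 1 and 2. Actn2, an actinin that binds GluN1, rose by 4.82 (SE 0.91, adjusted p = 0.000562), with 5.87 and 3.58 without E15.5 replicates 2 and 3. Of 5 tested genes of co-agonist supply, Psat1, an enzyme of serine synthesis, was called, at -2.61 (SE 0.41, adjusted p = 0.000105). The background was 34.6% of all genes called and 16.2% lower. The median of these genes was -0.86, beside -0.01 for all genes.

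Over the 15 SGN libraries, the pattern of Grin1 was close to that of Cox5a (Pearson r of log2(TPM + 1) 0.985) among 9655 protein-coding genes. The most alike genes were Sash1 and Kctd3 for Grin3a (0.972 and 0.971), Rps4x and Rack1 for Grik5 (0.957 and 0.956), Lmod3 and mt-Nd4l for Grik3 (0.947 and 0.93), Rundc3b and Ccdc88c for Grin2a (0.939 and 0.933) and Mrrf and Slc25a22 for Grin2c (both 0.936). For Grik4 they were Gm21093 and Tor1b (0.904 and 0.899), for Grik2 Atf2 and Lypla2 (0.887 and 0.856), for Grik1 Kank2 and Sgms2 (0.844 and 0.81) and for Grin2b Card19 and Palm2 (0.841 and 0.828). These correlations are descriptions over libraries that share age, depth and the TPM scale. On log2(TMM-scaled RPKM + 1) Rundc3b stayed among the 2 most alike for Grin2a (0.934), Mrrf for Grin2c (0.926), Lmod3 for Grik3 (0.933), Atf2 for Grik2 (0.819) and both genes for Grik1, while both changed for Grin2b, Grin3a, Grik4 and Grik5.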

How the data were processed

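RNA of picked or sorted cells was amplified (Ovation RNA-Seq V2) and sequenced. Reads were aligned by the authors to mm10 with STAR 2.4.0i and counted per gene with featureCounts on the GENCODE annotation, and the deposited table holds these counts as whole numbers for 52550 genes. The strand setting is not given in the sources used here. A median of 67.87% of the counts from 1 to 20 were even, and whether both reads of a pair were counted is not given there.

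Genes over 1 CPM in all libraries of at least 1 group were kept, 15113 for the 15 SGN libraries and 17531 for all 21. Counts were TMM-scaled (edgeR 4.0.16) and fitted with limma 3.58.1 (voom, two-sided, Benjamini-Hochberg adjustment, R 4.3.3). Age comparisons were called at an adjusted p under 0.05 and over 2-fold, cell type comparisons at 0.01 and over 4-fold. All p-values are from these fits unless edgeR's quasi-likelihood test or DESeq2 1.42.0 is named. On simulated data for E15.5 to P1 (14171 genes, 200 changed), limma recovered 62.4% of genes changed 4-fold or more, with 2 false calls. The changed genes were drawn only from those above a minimum mean count, so this recovery does not extend to genes with low counts. Levels had been planned as TPM. TMM-scaled RPKM was used in its place after Gm23935 was found to hold 8.17% to 68.07% of a library's TPM.

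The members and lists were chosen with earlier results of these data known. Named genes are the members, lists of up to 4 genes in full, the 3 genes of each longer list with the largest called change from E15.5 to P30, cell type markers as sums, and for each member the 2 protein-coding genes with the highest Pearson r over SGN libraries, and a few genes that this rule names are not reported here. Libraries held a median of 20384100 counts. Replicate numbers were checked for pairing by the correlation of deviations from group means, which was over 0.1 in all 3 numbers for P8 with P30 and P14 with P30 and in no other pair of ages. For number 1 it was over this limit in every pair of postnatal ages, from 0.262 for P1 with P14 to 0.396 for P8 with P30. Between E15.5 and the later ages number 1 gave -0.062 to -0.076. Alternatives were edgeR, DESeq2, sample quality weights, library size only, no filter, a filter at 10 CPM, a replicate block and leaving out each library.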

Additional observations from a re-analysis of the deposited data

How the results depend on the processing

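Most values kept their direction and their side of the thresholds: among the alternatives of log2 fold changes, 1874 did so, 99 no longer passed, 29 newly passed and 2 changed sign. They cover member changes that were called or over the fold limit, and called changes of some other named genes. In a comparison of 2 ages, leaving out a library of another age kept all compared libraries, so the fold change could move little. The adjusted p could still move. For Grin2b from E15.5 to P1 it went from 0.0812 to 0.042 without P8 replicate 3. The counts are thus no measure of how stable the members were. Without E15.5 replicate 2, the change from E15.5 to P1 turned to -0.36 for Grin2c (1.28 with all libraries, -0.36 to 2.34 over the libraries left out) and to 0.4 for Grik1 (-2.10 with all, -3.77 to 0.4). Neither passed in any of these fits, and the cause was not tested. With sample quality weights, 1 member was called from E15.5 to P1 and 3 at P8 against glia. With edgeR 0 were called from P1 to P8, and with DESeq2 1 from P8 to P14. A filter at 10 CPM, which tests only 6 of the 10 members, gave 3 from E15.5 to P30 and 3 against HCs, and library size only gave 3 against HCs. Leaving out 1 library gave 1 to 4 members from E15.5 to P1, 0 to 2 from P1 to P8, 0 in both later steps, 4 to 6 from E15.5 to P30, 6 to 7 in the test over ages, 3 to 6 against HCs, 2 to 5 against glia and 3 to 6 at P8 against glia. The counts that moved by over 1.5 times were 4 and 1 without E15.5 replicates 2 and 3 (E15.5 to P1), 2 without E15.5 replicate 2 and 0 without P1 replicate 1 or P8 replicate 2 or 3 (P1 to P8), 3 without HC replicate 1, 2 without glial replicate 3, and, at P8 against glia, 3 without P8 replicate 2 or glial replicate 2 or 3. The mean log2 ratio of Grin2a to Grin2b then ran from -1.61 to 0.15 at P1, -1.96 to 1.10 at P8 and -3.28 to -0.59 at P30.

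The replicate block was used although all 3 numbers passed the limit for pairing at only 2 pairs of ages. With the block, 3 members were called from E15.5 to P1 (Grin2b added), 1 from P1 to P8 and 0 in both later steps. It called 6 from E15.5 to P30 and over ages, and 5 against HCs. Against glia it called 5 (Grik2 lost, Grin2c and Grin3a added), and at P8 against glia 6 (Grin2c added). Over all 15113 genes tested, the block called 1448 from E15.5 to P1 and 1273 from P1 to P8. It called 5406 of them from E15.5 to P30 and 7077 over ages. Of 17531 genes it called 4557 against HCs, 4421 against glia and 3731 at P8 against glia.

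Over all genes, sample quality weights called 552 rather than 1248 from E15.5 to P1, 2017 rather than 4326 against glia and 1942 rather than 3662 at P8 against glia. From P1 to P8 edgeR called 649 rather than 1124. From P8 to P14 the 81 calls became 34 with edgeR, 219 with DESeq2, 174 with weights, 129 at 10 CPM and 146 with the block. From P14 to P30 the 9 calls became 97, 110, 17 and 23 with DESeq2, weights, 10 CPM and the block, and 15 without a filter. Against HCs 2849 rather than 4694 were called at 10 CPM, and against glia 2847. With library size only, the share of calls that were higher at the later age went from 61.5% to 46.7% from E15.5 to P1, from 57.7% to 35.6% from P1 to P8 and from 46.9% to 26.0% from P8 to P14. At these depths Grin2a and Grin2b, with at most 22 and 140 counts in any library of P14 and P30, give little precision at those ages.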
